A study of Mus musculus with 9 samples.

Results

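The genes described here are 10 regulators and membrane proteins of the red cell lineage, Gata1, Klf1, Gfi1b, Zfpm1, Hemgn, Tfrc, Car1, Car2, Ermap and Aqp1. Each was taken by its symbol from a table of 37882 genes, and all 10 were found. They were measured by RNA sequencing in LSK cells, the bone marrow cells that lack lineage markers and carry Sca1 and cKit, a fraction rich in blood stem cells and multipotent progenitors. The 9 mice were 6 to 8 weeks old, of B6/129 background, and were given 2 mg/ml doxycycline in drinking water sweetened with 10 mg/ml sucrose. All of them carried rtTA, the doxycycline-dependent transcription activator, in the Rosa26 locus. The 3 K36M mice also carried H3K36M in Col1a1, the 3 K9M mice carried H3K9M in Col1a1, and the 3 rtTA mice carried no histone transgene. Both transgenes encode histone H3.3 with the named lysine replaced by methionine, per the series title. A group with unmutated H3.3 was not part of the design, so an effect of the mutation and an effect of carrying a transgene cannot be told apart against rtTA. The length of doxycycline treatment is not stated in the sources used here. Each library came from 1 mouse.

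Red cells form from multipotent progenitors under GATA1, a zinc finger activator that works with its cofactor FOG1 (gene Zfpm1) and switches on Klf1, the activator of adult beta globin. Gfi1b encodes a zinc finger repressor that GATA1 induces, and GATA1, FOG1 and GFI1B also serve the megakaryocyte lineage. Later in the lineage cells load iron through the transferrin receptor (Tfrc) and build up carbonic anhydrases, water channels and blood group proteins. The sort removes cells with the red cell antigen Ter119.

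Both positive markers of the gate were expressed. Kit stood between 53.3 and 74.2 RPKM (reads scaled to gene length and to library size) in K36M, 81.1 and 92 RPKM in K9M, and 88.1 and 102 RPKM in rtTA. Every K36M library lay below the other 6 for Kit, with a log2 difference of -0.54 against rtTA (limma adjusted p = 0.0918) and -0.40 against K9M (limma adjusted p = 0.159). Ly6a, which encodes Sca1, lay between 119 and 192 RPKM in K36M, 125 and 172 RPKM in K9M, and 120 and 292 RPKM in rtTA. Among markers of red cells, over the 9 libraries Slc4a1, the band 3 anion exchanger, lay between 0.0693 and 0.871 RPKM and Alas2, the erythroid heme synthesis enzyme, between 0.0747 and 0.453 RPKM. The globins were higher, up to 206 RPKM for Hbb-bt in K36M replicate 1 and 36.3 RPKM for Hba-a2 in K9M replicate 3. Depth, read from the steps of the lowest values, lay between 15898434 and 50423794 reads per library, a ratio of 3.17, and the 10 genes were each counted with 121 to 36472 reads per library. In the rtTA replicate 1 library, 43.3% of 12926 tested genes lay above their own mean over the 9 libraries, against 46.8% to 53.2% in the others. The shift was small, with a median of -0.05 on the log2 scale, and the RPKM sum of this library (648864) was the highest of the 9. The rtTA replicate 3 library held 6910 RPKM summed over 8 granulocyte markers, against 853 to 2430 RPKM in the other 8 libraries. H3f3a and H3f3b both encode H3.3. H3f3a rose by 1.04 on the log2 scale in K36M against rtTA (limma adjusted p = 0.0141) but was not called in K9M against rtTA (0.43, limma adjusted p = 0.509), and H3f3b was called in neither (-0.20 and -0.15, limma adjusted p = 0.448 and 0.855). Reads of the transgenes and of these genes cannot be told apart.

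Ranked by mean RPKM over the 9 libraries, Car2 was highest at 332 RPKM, above 98.4% of tested genes, and Ermap lowest at 2.45 RPKM, above 18.8% of tested genes. Car2 (241 to 418 RPKM) lay apart from every other member. Car1 and Zfpm1 followed with means of 64.2 and 56.1 RPKM and overlapping ranges. Aqp1 came next with a mean of 26.3 RPKM (19.1 to 35.5), overlapping neither Zfpm1 above it nor Hemgn below it, its neighbours by mean. It did overlap Car1 (24.2 to 132 RPKM) and Tfrc (8.60 to 20.4 RPKM). Hemgn, Tfrc and Gfi1b, at 16, 14.3 and 13.2 RPKM, overlapped one another. Gata1 and Klf1 had means of 9.60 and 9.37 RPKM with overlapping ranges, and the highest Ermap library (4.6 RPKM) lay below the lowest Klf1 library (4.97 RPKM). These levels rest on the authors' gene lengths. The deposited values imply a length of 2002 bases for Zfpm1, where GENCODE M21 has 3503 exon bases, and with M21 lengths the mean of Zfpm1 was 32.1 RPKM and that of Gfi1b, at 18.5 RPKM, stood above Hemgn. The gaps between neighbours in this order also depend on the lengths. With M21 lengths Car2 (177 to 307 RPKM) overlapped Car1 (32.4 to 178 RPKM), Zfpm1 (22.5 to 37.8 RPKM) overlapped Aqp1, and Aqp1 (19.1 to 35.4 RPKM) overlapped Gfi1b (13.8 to 24.5 RPKM), its next neighbour. Ermap (2.39 to 7.30 RPKM) then overlapped Klf1. Differences between groups do not depend on gene length apart from the added pseudocount.

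**Figure D1:**
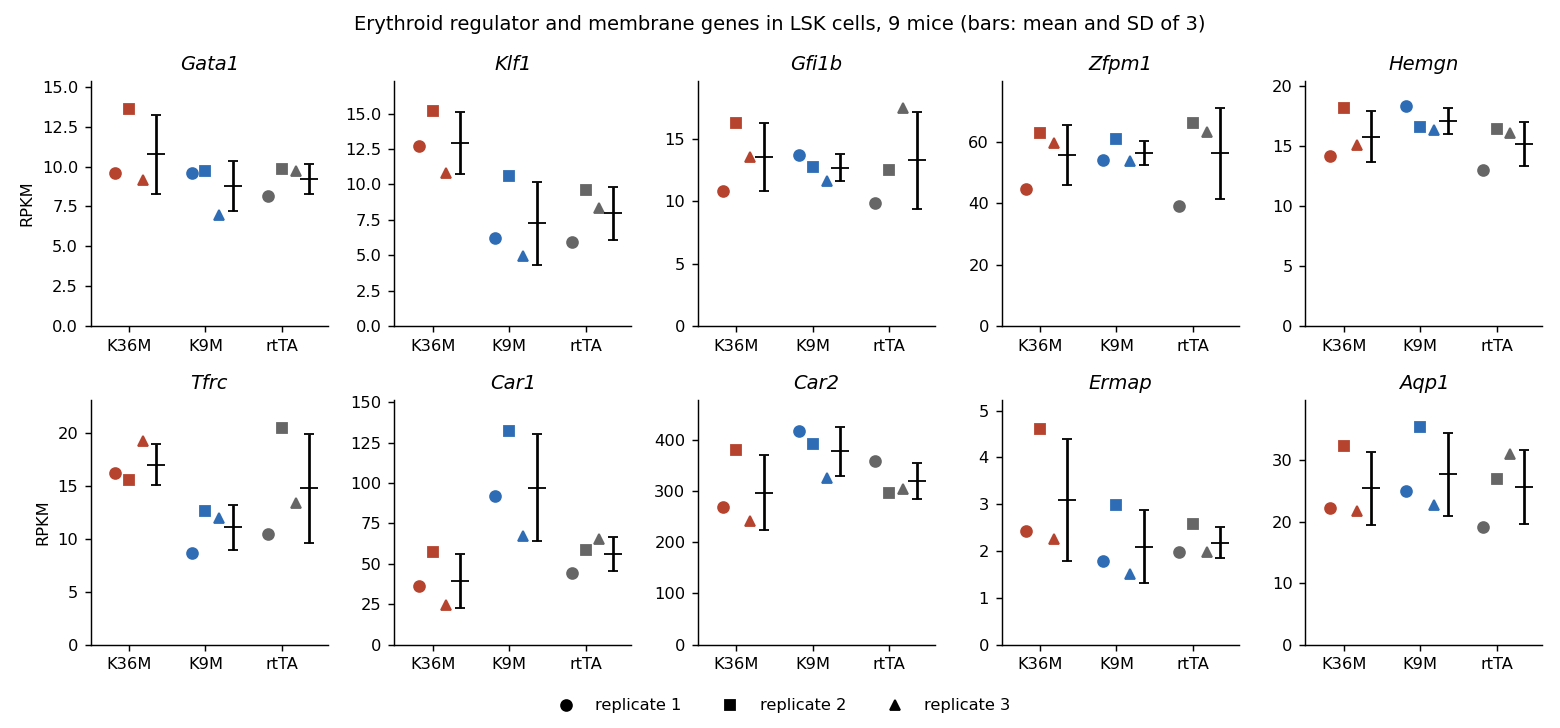
RPKM of the 10 genes (vertical axes, each from 0) in every library of the K36M, K9M and rtTA groups, with replicates as symbols and bars for mean and SD of 3 mice. Only Klf1, Tfrc and Car1 had a pair of groups that did not overlap, and the other 7 genes overlapped in all 3 comparisons.

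By limma, 0 of the 10 genes were called in any of the 3 comparisons at an adjusted p under 0.05. In K9M against rtTA, 0.116% of the 12926 tested genes were called, 0.0928% higher and 0.0232% lower. In K36M against rtTA it was 1.5%, with 0.572% higher and 0.928% lower, and in K36M against K9M 2.52%, with 1.02% higher and 1.5% lower. With the replicate number as a block the K36M against rtTA calls numbered 301 in place of 194, again with none of the 10 genes. In K36M against K9M the block gave 595 calls in place of 326. Among these were Klf1 higher (limma adjusted p = 0.0486) and Car1 lower (limma adjusted p = 0.0402). The replicate numbers of K36M and K9M did not meet the rule for pairs given below, and the counts that follow are without the block. At an unadjusted p under 0.05, 1 of 10 stood out in K9M against rtTA (Car1 higher), against 7.11% of all tested genes, 4% higher and 3.11% lower. The count was 1 of 10 in K36M against rtTA (Klf1 higher), against 19.1% of all tested genes, 10.2% higher and 8.86% lower. In K36M against K9M it was 3 of 10 (Klf1 and Tfrc higher, Car1 lower), against 18.8%, 9.31% higher and 9.48% lower. The same genes were those whose groups did not overlap. They were 1 of 10 in K9M against rtTA beside 12.5% of tested genes (7.09% higher, 5.43% lower) and 1 of 10 in K36M against rtTA beside 22.3% (11.6% higher, 10.6% lower). They were 3 of 10 in K36M against K9M beside 27.9% (14.5% higher, 13.4% lower). Log2 differences above 0 were found for 5, 7 and 5 of the 10 in K9M against rtTA, K36M against rtTA and K36M against K9M, beside 51.3%, 52.3% and 51.1% of tested genes. Median log2 differences of the 10 genes were 0.00, 0.05 and 0.02 in K9M against rtTA, K36M against rtTA and K36M against K9M, beside 0.01, 0.02 and 0.01 for all tested genes. limma voom on whole reads recovered from the deposited values called 0, 0 and 1 of the 10, the last being Car1 lower in K36M than in K9M. In the same order it called 8, 282 and 550 of the 12926 tested genes. In bulk RNA, fewer cells of a type and less RNA per cell cannot be told apart.

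**Figure D2:**
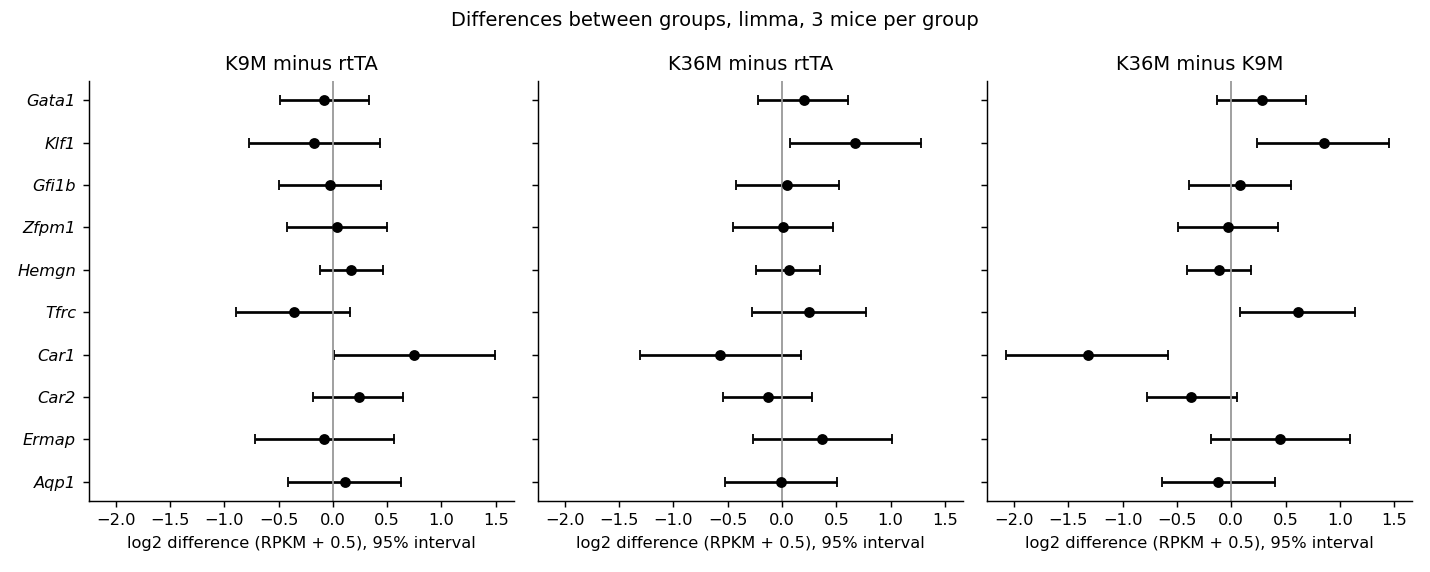
Log2 differences of RPKM + 0.5 with 95% intervals from limma (horizontal axis) for the 10 genes (vertical axis) in the 3 comparisons. The widest displacements are Car1 at -1.32 and Klf1 at 0.85 in K36M against K9M, and neither passed an adjusted p of 0.05.

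Gata1, the lineage's central activator (ENSMUSG00000031162, mm10 chromosome X, 7959260 to 7978071, minus strand), stood at 9.58, 13.6 and 9.15 RPKM in K36M replicates 1 to 3, 9.61, 9.74 and 6.94 RPKM in K9M replicates 1 to 3, and 8.16, 9.84 and 9.73 RPKM in rtTA replicates 1 to 3. All groups overlapped, and K36M replicate 2 was the one library well above the rest. Its log2 difference was 0.20 in K36M against rtTA (95% interval -0.22 to 0.61, limma adjusted p = 0.612) and -0.08 in K9M against rtTA (-0.49 to 0.33, limma adjusted p = 0.94). K36M against K9M gave 0.28 (-0.13 to 0.69, limma adjusted p = 0.462).

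Klf1, the beta globin activator (ENSMUSG00000054191, chromosome 8, 84901928 to 84905291, plus strand), was measured at 12.7, 15.2 and 10.8 RPKM in K36M, 6.19, 10.6 and 4.97 RPKM in K9M, and 5.94, 9.63 and 8.35 RPKM in rtTA, replicates 1 to 3 each. Every K36M library lay above every other library. K36M averaged 12.9 ± 2.18 RPKM, K9M 7.24 ± 2.94 RPKM and rtTA 7.97 ± 1.87 RPKM (SD, n = 3 each). The log2 difference was 0.67 in K36M against rtTA (95% interval 0.07 to 1.28, limma adjusted p = 0.22). In K36M against K9M it was 0.85 (0.24 to 1.45, limma adjusted p = 0.134), and neither passed over all genes. K9M against rtTA gave -0.17 (-0.77 to 0.43, limma adjusted p = 0.913). Counting error was small beside the spread between mice. The lowest library, K9M replicate 3, held 121 Klf1 reads with a 95% Poisson interval of 4.12 to 5.94 RPKM, and the coefficient of variation from counting in a group was 3.48% to 6.48% against 16.9% to 40.6% between the mice of a group. The interval covers counting error only. Beside Klf1, 11 erythroid markers led by the globins summed to 145 to 255 RPKM in K36M, 82.2 to 99.5 RPKM in K9M and 38.1 to 83.3 RPKM in rtTA. Hbb-bt made up most of the K36M sums, and the other 10 markers summed to 43.4 to 69.1 RPKM in K36M, 57.7 to 76.6 RPKM in K9M and 28.3 to 68.8 RPKM in rtTA, with overlap between all groups. The part of these cells in the Klf1 values was not tested.

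Gfi1b, the repressor (ENSMUSG00000026815, chromosome 2, 28609450 to 28621982, minus strand), averaged 13.5 ± 2.71 RPKM in K36M, 12.7 ± 1.06 RPKM in K9M and 13.3 ± 3.85 RPKM in rtTA (SD, n = 3 each). Its widest spread was among rtTA mice, from 9.83 to 17.4 RPKM, which spans every other library. The log2 difference of Gfi1b was 0.05 in K36M against rtTA (95% interval -0.42 to 0.52, limma adjusted p = 0.928) and -0.03 in K9M against rtTA (-0.50 to 0.44, limma adjusted p = 0.984). Zfpm1, the GATA1 cofactor gene (ENSMUSG00000049577, chromosome 8, 122282141 to 122337251, plus strand), averaged 55.8 ± 9.66 RPKM in K36M, 56.3 ± 3.97 RPKM in K9M and 56.3 ± 14.8 RPKM in rtTA (SD, n = 3 each). Its log2 difference was 0.01 in K36M against rtTA (95% interval -0.45 to 0.47, limma adjusted p = 0.987) and 0.04 in K9M against rtTA (-0.42 to 0.50, limma adjusted p = 0.981). Gm20388, which lies over Zfpm1 on the same strand without shared exon bases in M21, had a mean of 26.6 RPKM, and how reads of the pair were divided is not given in the sources used here.

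Hemgn, which encodes the nuclear protein hemogen of blood progenitors and erythroid cells (ENSMUSG00000028332, chromosome 4, 46393989 to 46413506, minus strand), varied least. It spanned 13.0 to 18.3 RPKM over the 9 libraries, a ratio of 1.40 between highest and lowest, against 5.48 for Car1. Means were 15.8 ± 2.11 RPKM in K36M, 17.1 ± 1.07 RPKM in K9M and 15.2 ± 1.86 RPKM in rtTA (SD, n = 3 each). The intervals of its log2 difference were the narrowest of the 10, from -0.24 to 0.35 in K36M against rtTA and from -0.12 to 0.46 in K9M against rtTA.

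Tfrc, the receptor that takes up transferrin-bound iron (ENSMUSG00000022797, chromosome 16, 32608920 to 32632794, plus strand), stood at 16.2, 15.6 and 19.2 RPKM in K36M replicates 1 to 3 and 8.60, 12.6 and 12 RPKM in K9M replicates 1 to 3. It stood at 10.4, 20.4 and 13.3 RPKM in rtTA replicates 1 to 3. K36M lay wholly above K9M, while the rtTA mice overlapped both. The log2 difference was 0.61 in K36M against K9M (95% interval 0.08 to 1.14, limma adjusted p = 0.198). It was 0.25 in K36M against rtTA (-0.28 to 0.77, limma adjusted p = 0.619) and -0.36 in K9M against rtTA (-0.89 to 0.16, limma adjusted p = 0.783). Tfrc is also high in dividing cells of many types. Beside it, 19 of 19 listed cell cycle genes had a positive log2 difference in K36M against rtTA and 17 of 19 in K36M against K9M. In K9M against rtTA, where the Tfrc difference was negative, 14 of 19 were positive. Of all tested genes, 52.3%, 51.1% and 51.3% were positive in these comparisons, in the same order. The part of the cell cycle genes in the Tfrc values was not tested.

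Ermap, the erythroblast membrane protein that carries the Scianna blood group in humans (ENSMUSG00000028644, chromosome 4, 119175457 to 119190011, minus strand), stood at 2.42, 4.6 and 2.25 RPKM in K36M, 1.79, 2.98 and 1.5 RPKM in K9M, and 1.98, 2.57 and 1.99 RPKM in rtTA, replicates 1 to 3 each. Its transcripts shared stretches of at least 100 bases at 90% identity or more with those of Gbp4, Gm44189 and Pikfyve. The longest, with Gbp4, was 197 bases, and how such reads were divided is not given. For Ermap the groups overlapped, and K36M replicate 2 was again the highest library. Its log2 difference was 0.37 in K36M against rtTA (95% interval -0.27 to 1.01, limma adjusted p = 0.525), -0.08 in K9M against rtTA (-0.72 to 0.56, limma adjusted p = 0.966) and 0.45 in K36M against K9M (-0.19 to 1.09, limma adjusted p = 0.439). Aqp1, the water channel of red cells, kidney and vessels (ENSMUSG00000004655, chromosome 6, 55336432 to 55348555, plus strand), averaged 25.5 ± 5.94 RPKM in K36M, 27.8 ± 6.77 RPKM in K9M and 25.7 ± 6.05 RPKM in rtTA (SD, n = 3 each). Its log2 difference was -0.01 in K36M against rtTA (-0.53 to 0.51, limma adjusted p = 0.989) and 0.11 in K9M against rtTA (-0.41 to 0.63, limma adjusted p = 0.936). Vessel cells also carry Aqp1. Of 8 listed endothelial and stromal markers, Pecam1 was highest, between 25.1 and 34.1 RPKM in K36M, 16.5 and 20 RPKM in K9M and 16.6 and 23.7 RPKM in rtTA. Emcn went the other way, between 2.27 and 3.63 RPKM in K36M, 3.97 and 4.68 RPKM in K9M and 3.68 and 4.71 RPKM in rtTA. Tek lay between 2.34 and 3.41 RPKM over the 9 libraries, while Cdh5 and Kdr were at or below 0.121 and 0.291 RPKM. The whole list summed to 32.9 to 39.3 RPKM in K36M, 23.9 to 27.6 RPKM in K9M and 24.7 to 32.1 RPKM in rtTA. Pecam1 made up most of every sum, and the part of vessel cells in the Aqp1 values was not tested.

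Car1 and Car2 encode cytosolic carbonic anhydrases, which interconvert carbon dioxide and bicarbonate, and Car1 had the largest difference of the 10 genes in K36M against K9M and in K9M against rtTA. Car1 (ENSMUSG00000027556, chromosome 3, 14766216 to 14808368, minus strand), an early marker of red cell commitment, stood at 36.4, 57.6 and 24.2 RPKM in K36M replicates 1 to 3 and 91.8, 132 and 67.1 RPKM in K9M replicates 1 to 3. In rtTA replicates 1 to 3 it stood at 44.2, 58.7 and 65.3 RPKM. Every K9M library lay above every K36M and every rtTA library, while K36M and rtTA overlapped. The log2 difference was -1.32 in K36M against K9M (95% interval -2.07 to -0.58, limma adjusted p = 0.0711), 0.75 in K9M against rtTA (0.01 to 1.49, limma adjusted p = 0.70) and -0.57 in K36M against rtTA (-1.31 to 0.17, limma adjusted p = 0.383). The K36M against K9M difference passed in 3 of 20 alternatives and did not pass in the other 17 (highest limma adjusted p = 0.218). It passed without K36M replicate 2 (-1.64, limma adjusted p = 0.0302) and with the replicate number as a block (-1.32, limma adjusted p = 0.0402). The third was limma voom run on the recovered reads (-1.39, limma adjusted p = 0.0477). Gm5843, a gene 97.9% identical to Car1 over 476 transcript bases, stayed at or below 0.450 RPKM in every library.

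Car2 (ENSMUSG00000027562, chromosome 3, 14886273 to 14900770, plus strand) stood at 270.3, 381 and 241 RPKM in K36M replicates 1 to 3, 418, 392 and 326 RPKM in K9M replicates 1 to 3, and 360.4, 296 and 305 RPKM in rtTA replicates 1 to 3. Groups overlapped in each comparison. Its log2 difference was -0.37 in K36M against K9M (95% interval -0.78 to 0.05, limma adjusted p = 0.329), 0.24 in K9M against rtTA (-0.18 to 0.65, limma adjusted p = 0.818) and -0.13 in K36M against rtTA (-0.54 to 0.28, limma adjusted p = 0.752).

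A carbonic anhydrase gene that lies between them did pass the test. Car3 (ENSMUSG00000027559, chromosome 3, 14863512 to 14872523, plus strand), best known from muscle, fat and liver, starts 22.8 kb before Car2 and came from the list of other carbonic anhydrases and aquaporins. It stood at 17.3, 21.3 and 19.9 RPKM in K36M replicates 1 to 3, 8.13, 6.72 and 7.21 RPKM in K9M replicates 1 to 3, and 6.78, 5.59 and 6.90 RPKM in rtTA replicates 1 to 3. The K36M libraries all lay above the other 6. Car3 rose by 1.53 on the log2 scale in K36M against rtTA (SE 0.127, limma adjusted p = 0.00163) and by 1.35 in K36M against K9M (SE 0.127, limma adjusted p = 0.00486). It did not pass in K9M against rtTA (0.18, limma adjusted p = 0.796). Both calls held in all 20 alternatives, with limma adjusted p up to 0.0184 against rtTA and 0.0421 against K9M. Transcripts of Car3 shared no stretch of at least 100 bases at 90% identity with another gene, and neither did those of Car2. Car13, on the other side of Car1, stood at 6.28 ± 1.47 RPKM in K36M, 6.89 ± 0.273 RPKM in K9M and 8.46 ± 3.82 RPKM in rtTA (SD, n = 3 each) and was not called. The view along the chromosome was chosen after the value of Car3 was seen. In K36M against rtTA the log2 differences along it were -0.34 for Car13, -0.57 for Car1, 1.53 for Car3 and -0.13 for Car2, of which that of Car3 alone was called.

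**Figure D3:**
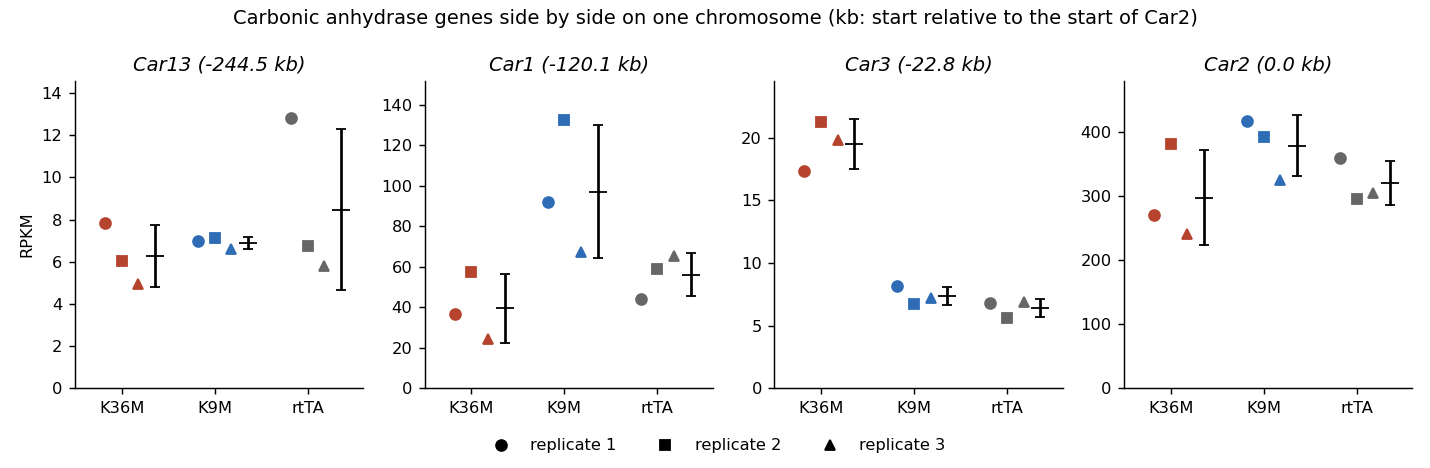
RPKM (vertical axes, each from 0) of the 4 neighbouring carbonic anhydrase genes in chromosome order, by library, with bars for mean and SD of 3 mice and the start of each gene in kb from the start of Car2. Car3 lies between 17.3 and 21.3 RPKM in K36M and between 5.59 and 8.13 RPKM elsewhere, while Car1 is highest in K9M.

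Ratios within a library remove its scale. The pairs of genes were chosen after the values above were seen, and 5 ratios were compared in 3 comparisons, 15 tests in all. Car1 over Car2 was 0.135, 0.151 and 0.1 in K36M replicates 1 to 3, 0.220, 0.337 and 0.206 in K9M replicates 1 to 3, and 0.123, 0.198 and 0.214 in rtTA replicates 1 to 3. K36M lay wholly below K9M, and rtTA overlapped both. Klf1 over Gata1 was 1.33, 1.11 and 1.18 in K36M replicates 1 to 3, 0.644, 1.08 and 0.716 in K9M replicates 1 to 3, and 0.728, 0.978 and 0.859 in rtTA replicates 1 to 3, so each K36M library lay above the other 6. Gata1 over Gata2, the factor it displaces as red cells form, was 0.337, 0.335 and 0.261 in K36M replicates 1 to 3, 0.194, 0.239 and 0.168 in K9M replicates 1 to 3, and 0.213, 0.159 and 0.197 in rtTA replicates 1 to 3. Here too K36M lay above the other 6 libraries, and Gata2 itself averaged 34.8 ± 6.18 RPKM in K36M, 43.9 ± 4.96 RPKM in K9M and 49.9 ± 11.8 RPKM in rtTA (SD, n = 3 each). For these ratios with groups apart the two-sided exact permutation p was 0.1, the smallest that 3 against 3 allows, and 0.3 adjusted over the 15 tests. Gata1 over Spi1, the gene of the myeloid factor PU.1 that antagonises GATA1, averaged 0.226 ± 0.105 in K36M, 0.228 ± 0.0568 in K9M and 0.233 ± 0.0468 in rtTA (SD, n = 3 each) and overlapped throughout. The fifth ratio, Zfpm1 over Gata1, averaged 5.27 ± 1.08 in K36M, 6.55 ± 1.08 in K9M and 6.02 ± 1.05 in rtTA (SD, n = 3 each), also with overlap.

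**Figure D4:**
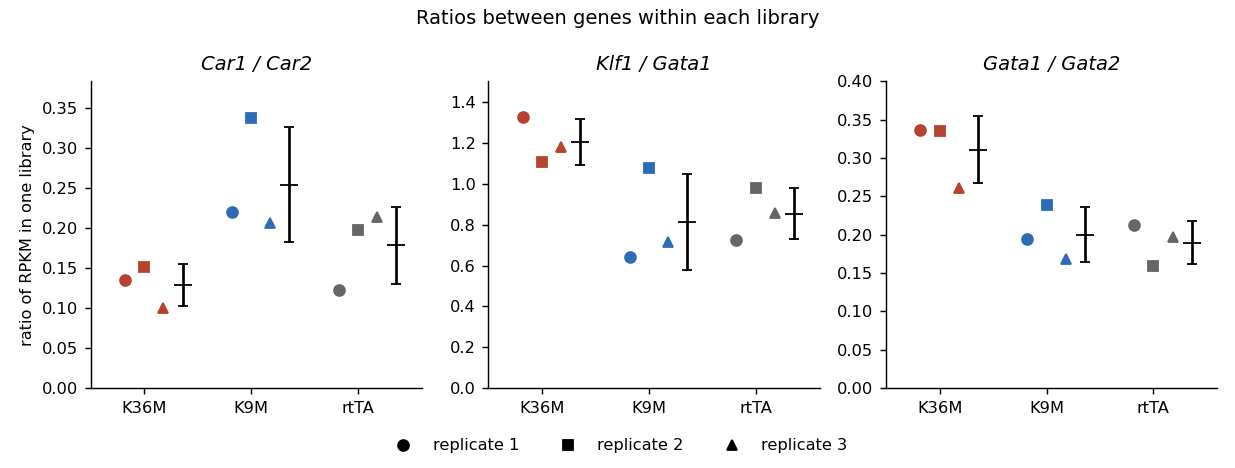
Ratios of RPKM within each library (vertical axes, each from 0) for Car1 over Car2, Klf1 over Gata1 and Gata1 over Gata2 in K36M, K9M and rtTA, with bars for mean and SD of 3 mice. In K36M, Klf1 over Gata1 lies between 1.11 and 1.33, above all other libraries.

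Much of the variation was between mice of 1 group. In K36M replicate 2, 9 of the 10 genes lay above their own mean over the libraries, with a median of 0.27 on the log2 scale, against 49.3% of all tested genes above theirs. In K9M replicate 2 and in rtTA replicate 2, 8 of 10 lay above, with medians of 0.19 and 0.06, against 51.8% and 49.7% of all tested genes. Replicate 2 was thus the library with the most of the 10 genes above their mean in each group. What a replicate number stands for is not given in the labels, and a cause shared by number was not tested. In K9M replicate 3, 2 of 10 lay above, with a median of -0.17, against 46.8% of all tested genes. In rtTA replicate 1, 1 of 10 lay above, with a median of -0.38, against 43.3%. Within K9M, replicate 2 was the highest mouse for every gene but Gfi1b, Car2 and Hemgn. Leaving out any 1 library called none of the 10 genes except Car1 as given above. By the root mean square difference of centred log2 values over the 9 libraries, the closest pairs of the 45 were Gfi1b with Zfpm1 (0.158) and Zfpm1 with Hemgn (0.162), and Gata1 was closest to Ermap (0.198). The farthest were Tfrc and Klf1 from Car1 (0.923 and 0.912).

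**Figure D5:**
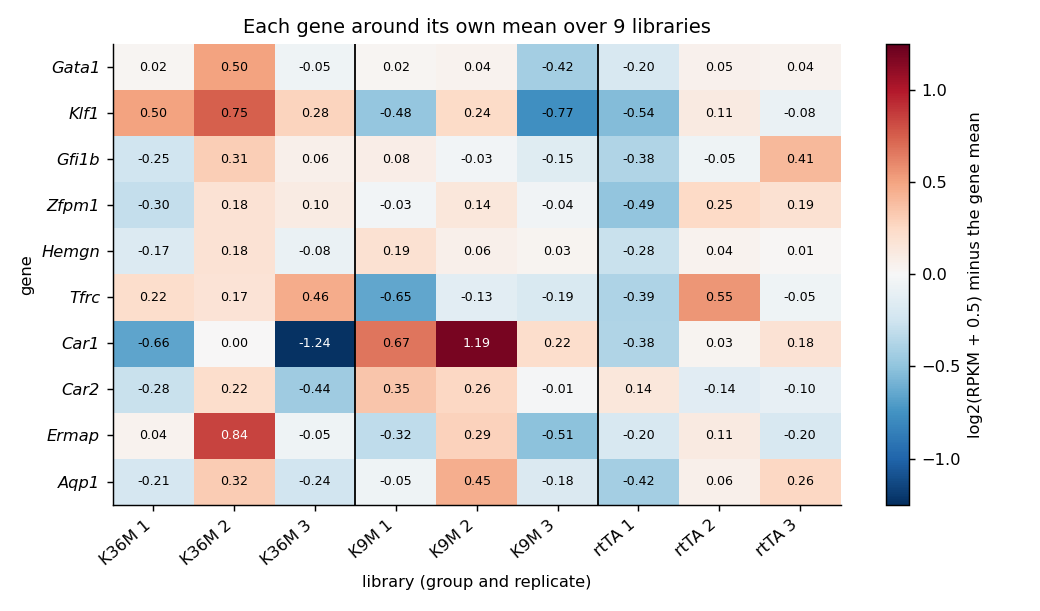
Log2(RPKM + 0.5) minus the gene's mean over the 9 libraries (colour and printed number) for the 10 genes (rows) and 9 libraries (columns). K36M replicate 2 is above the mean for Gata1 (0.50), Klf1 (0.75) and Ermap (0.84), rtTA replicate 1 is below it for every gene but Car2, and Car1 runs from -1.24 in K36M replicate 3 to 1.19 in K9M replicate 2.

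All tested genes were also compared by the same measure, leaving out those whose symbols are only model or clone numbers. The pattern most like that of Gata1 was that of Tspan33 (0.104), a tetraspanin gene of the erythroid lineage with a mean of 1.71 RPKM. Fbxo5 (0.125) and Rabgef1 (0.129) came next. The centred values of Gata1 themselves had a root mean square of 0.231, and shared control with these genes was not tested. Nearest to Klf1 were Atp1b2 (0.177), Cep76 (0.215) and Paqr4 (0.241). For Hemgn they were Iba57 (0.059), Fntb (0.068) and Iqcc (0.074). Genes with small differences between libraries come out close to a flat gene such as Hemgn by this measure.

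Gata1, Klf1 and Ermap, 3 of the 10, were each highest in K36M replicate 2, as were 3.6% of all tested genes. They were picked from these values of 1 mouse, and shared control was not tested. Their RefSeq promoters (GRCm38.p6) are shown, 250 bases before to 50 after the start, on the strand of the gene. Capitals mark matches to AGATAA or AGATAG and to TGATAA or TGATAG, which are the sites read by GATA factors, and to CCNCNCCC, a form of the CACCC box read by Krueppel-like factors, on either strand. The Klf1 window is chr8:84901732-84902031, the Ermap window chr4:119189946-119190245 and the Gata1 window chrX:7967861-7968160.
Klf1: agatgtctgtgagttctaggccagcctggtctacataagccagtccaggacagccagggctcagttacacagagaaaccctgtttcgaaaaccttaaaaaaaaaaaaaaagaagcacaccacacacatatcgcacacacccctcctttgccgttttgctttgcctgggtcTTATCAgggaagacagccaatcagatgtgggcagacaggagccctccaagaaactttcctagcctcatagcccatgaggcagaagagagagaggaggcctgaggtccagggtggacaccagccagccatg
Ermap: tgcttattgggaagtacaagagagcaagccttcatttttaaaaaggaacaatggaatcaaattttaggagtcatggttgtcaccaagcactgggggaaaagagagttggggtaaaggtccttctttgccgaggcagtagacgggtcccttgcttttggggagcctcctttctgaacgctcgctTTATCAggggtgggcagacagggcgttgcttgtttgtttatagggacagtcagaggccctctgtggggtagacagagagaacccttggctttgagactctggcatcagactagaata
Gata1: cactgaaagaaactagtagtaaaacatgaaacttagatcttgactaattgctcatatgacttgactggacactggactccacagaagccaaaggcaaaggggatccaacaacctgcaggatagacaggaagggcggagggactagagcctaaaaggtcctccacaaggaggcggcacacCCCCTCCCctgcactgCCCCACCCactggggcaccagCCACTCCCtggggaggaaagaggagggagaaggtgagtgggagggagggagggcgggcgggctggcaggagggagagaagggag
Klf1 and Ermap each held 1 GATA match, TGATAA on the opposite strand and so printed as TTATCA, 80 and 67 bases before the start, and no CACCC match. Gata1 held 3 CACCC matches, from 71 bases before the start, and no GATA match. RefSeq windows were found for 8 of the 10 genes, not for Car1 and Car2. Of these 8, the GATA letters were in those of Klf1, Gfi1b, Hemgn and Ermap and the CACCC letters in those of Gata1, Gfi1b, Zfpm1, Tfrc, Hemgn and Aqp1. Of 32544 distinct promoter windows of 300 bases, 29.6% held a GATA match and 49.7% a CACCC match. Matches in a run of C, as in Hemgn, overlap one another. A match is a string of letters and not a bound site.

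Other genes of the pathway were read from gene lists. Beside each list count at an unadjusted p under 0.05 stand 7.11%, 19.1% and 18.8% of all tested genes. These shares are for K9M against rtTA, K36M against rtTA and K36M against K9M, in this order. Of 22 GATA1 partners and other erythroid transcription regulators, all tested, 0 were called by limma in each comparison, with medians of -0.08 in K9M against rtTA, -0.06 in K36M against rtTA and 0.00 in K36M against K9M. At an unadjusted p under 0.05 they numbered 1, 5 and 5, of which 1, 4 and 3 were lower. By limma voom, 0, 1 and 1 were called, Klf3 in K36M against rtTA and Lmo2 in K36M against K9M, both lower. Klf3, a repressor that KLF1 induces, stood at 19.1 ± 0.424 RPKM in K36M against 26.6 ± 2.09 RPKM in rtTA (SD, n = 3 each; log2 difference -0.47, limma adjusted p = 0.061). Lmo2, the bridging subunit of the TAL1 and GATA complex, stood at 161 ± 9.97 RPKM in K36M against 209 ± 11.1 RPKM in rtTA (SD, n = 3 each; -0.38, limma adjusted p = 0.119). Fli1, a megakaryocyte factor, stood at 20.5 ± 0.748 RPKM in K9M against 26.4 ± 4.33 RPKM in rtTA (SD, n = 3 each; -0.35, limma adjusted p = 0.693).

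Of 11 genes of erythropoietin receptor signalling, 0 were called by limma in each comparison and 2, 2 and 4 had an unadjusted p under 0.05 in K9M against rtTA, K36M against rtTA and K36M against K9M. The limma voom counts were 0 in each comparison. Socs3, a feedback inhibitor of this pathway, stood at 12.7 ± 1.08 RPKM in K9M against 20.7 ± 2.88 RPKM in rtTA (SD, n = 3 each; -0.67, limma adjusted p = 0.268). Pim1, a STAT5 target kinase, stood at 96.4 ± 5.31 RPKM in K36M against 65.7 ± 9.84 RPKM in K9M (SD, n = 3 each; 0.56, limma adjusted p = 0.147). Epor, the receptor, stood at 5.70 ± 2.37 RPKM in K36M, 3.97 ± 1.68 RPKM in K9M and 3.56 ± 0.419 RPKM in rtTA (SD, n = 3 each), and its groups overlapped.

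Of 13 iron handling genes, 1 was called. Aco1, the cytosolic aconitase that as IRP1 binds Tfrc mRNA when iron is low, fell by 0.45 on the log2 scale in K36M against K9M, with 8.22 ± 0.371 RPKM in K36M and 11.4 ± 0.339 RPKM in K9M (SD, n = 3 each, limma adjusted p = 0.0383). The call was lost without any 1 of the K36M and K9M libraries or rtTA replicate 3, and also unfiltered or with only the 2 groups compared (limma adjusted p up to 0.129). The list had 1, 1 and 2 genes at an unadjusted p under 0.05 in K9M against rtTA, K36M against rtTA and K36M against K9M. Red cell membrane and blood group genes, 15 tested of 20, had 0 calls by limma in each comparison, 1, 2 and 2 genes at an unadjusted p under 0.05, and medians of 0.01 in K9M against rtTA, 0.17 in K36M against rtTA and 0.25 in K36M against K9M. By limma voom they also had 0 calls in each comparison. Rhd, a Rhesus antigen gene, stood at 5.98 ± 2.44 RPKM in K36M and 4.46 ± 1.53 RPKM in K9M against 3.11 ± 0.211 RPKM in rtTA (SD, n = 3 each; 0.77 and 0.41, limma adjusted p = 0.206 and 0.799).

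Globin and heme synthesis genes, 12 tested of 17, had 1 call, Hbb-bt, an adult beta globin gene under KLF1. It stood at 206, 181 and 101 RPKM in K36M replicates 1 to 3, 40.1, 23.7 and 5.66 RPKM in K9M replicates 1 to 3, and 9.80, 12.4 and 14.4 RPKM in rtTA replicates 1 to 3. The K36M libraries were all higher than the others for Hbb-bt and for Klf1. The highest was K36M replicate 1 for Hbb-bt and K36M replicate 2 for Klf1, and a link between the genes was not tested. Hbb-bs, the neighbour and near copy of Hbb-bt, stood at 17.5 ± 2.14 RPKM in K36M, 22.1 ± 2.43 RPKM in K9M and 12.6 ± 5.79 RPKM in rtTA (SD, n = 3 each). It was not called, and how reads of the pair were divided is not given. The Hbb-bt call against rtTA (3.64 on the log2 scale, limma adjusted p = 0.0267) was lost without K36M replicates 1 or 3 or any 1 rtTA library, with no filter and with library weights, up to a limma adjusted p of 0.122. The Hbb-bt call against K9M (3.10, limma adjusted p = 0.0336) was lost without any 1 K36M library, K9M replicate 2 or rtTA replicate 3, and also unfiltered or with only the 2 groups compared, and the highest limma adjusted p was 0.129. The list had 4, 5 and 3 genes at an unadjusted p under 0.05 in the order of comparisons used above. The shares of all tested genes were 7.11%, 19.1% and 18.8%. Of 7 tested genes in the list of other carbonic anhydrases and aquaporins, Car3 was the 1 call. Of 19 cell cycle genes 1 was called, the mitotic kinase Plk1, higher in K36M than in K9M (0.67, limma adjusted p = 0.0384). That call was lost without any 1 library of K9M, K36M replicates 1 or 3 or rtTA replicate 3, and also unfiltered or with only the 2 groups compared (highest limma adjusted p = 0.145). By limma voom 3 were called in that comparison, Ccnb1, Plk1 and Rrm2, all higher in K36M. At an unadjusted p under 0.05, 3 of the 19 were higher in K9M against rtTA, 13 in K36M against rtTA and 6 in K36M against K9M, beside 4%, 10.2% and 9.31% of all tested genes. None of the 19 was lower at that p.

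Markers of other cells were summed per library. Their counts at an unadjusted p under 0.05 stand beside 7.11%, 19.1% and 18.8% of all tested genes. These shares are again for K9M against rtTA, K36M against rtTA and K36M against K9M. Of the 11 erythroid markers, 7 were tested and 1 was called, Hbb-bt, in K36M against rtTA and in K36M against K9M. Megakaryocyte markers, 10 genes, summed to 147 to 218 RPKM in K36M, 204 to 255 RPKM in K9M and 225 to 265 RPKM in rtTA. They had 0 calls by limma in each comparison and 0, 2 and 2 genes at an unadjusted p under 0.05 in K9M against rtTA, K36M against rtTA and K36M against K9M. By limma voom 1 was called, Pf4, a platelet chemokine gene, lower in K36M than in K9M. Mast cell and basophil markers, 8 genes, lay at 41.1 to 72.3 RPKM in K36M, 55.6 to 70.2 RPKM in K9M and 42.5 to 84.8 RPKM in rtTA, with 1 call, Cpa3, lower in K36M than in K9M (-0.92, limma adjusted p = 0.0219), a call lost without any 1 K9M library or K36M replicates 1 or 3 and with no filter (highest limma adjusted p = 0.108). These lineages also use Gata1, and their part in the values of the 10 genes was not tested. Stem and progenitor markers, 8 genes, summed to 596 to 614 RPKM in K36M, 692 to 824 RPKM in K9M and 641 to 887 RPKM in rtTA. They had 0 calls by limma in each comparison and 1, 6 and 5 genes at an unadjusted p under 0.05, in the same order of comparisons, and limma voom called 1, Cd34, lower in K36M than in K9M. Granulocyte markers, 8 genes, had 1 call, Ltf, lower in K36M than in rtTA (-4.01, limma adjusted p = 0.037). That call was lost without any 1 K36M or K9M library or rtTA replicate 1, with no filter, with a robust prior and with only the 2 groups compared (highest limma adjusted p = 0.141). At an unadjusted p under 0.05, 6 of the 8 were lower and 2 higher in K36M against rtTA. The 2 higher were the primary granule genes Elane, at 583 ± 343 RPKM in K36M against 162 ± 75.5 RPKM in rtTA (SD, n = 3 each; 1.74, limma adjusted p = 0.254), and Mpo, at 941 ± 427 RPKM in K36M against 459 ± 158 RPKM in rtTA (SD, n = 3 each; 0.96, limma adjusted p = 0.24). In K9M against rtTA 2 were lower at that p, and in K36M against K9M 1 was higher and 1 lower. The other lists had 0 calls by limma in each comparison. By limma voom they had 1, Pecam1 of the endothelial and stromal list, higher in K36M than in K9M. At an unadjusted p under 0.05, again in that order, there were 4, 2 and 3 of 5 tested B lineage genes, 1, 2 and 1 of 2 T and NK genes, and 0, 0 and 0 of 1 eosinophil gene. There were 2, 3 and 4 of 8 monocyte, macrophage and dendritic genes. There were 0, 2 and 2 of 3 tested endothelial and stromal genes.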

How the data were processed

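RNA was sequenced from sorted LSK cells of 9 mice, 3 each of K36M, K9M and rtTA, grouped by sample title. The authors deposited RPKM values per gene and library. CASAVA 1.7, STAR and the build mm10 are named in the submitters' processing notes. The sources used here do not give the counting rule, strand use or gene models. Coordinates and biotypes are from GENCODE M21 (same build). The labels' molecule field says polyA RNA, while the library protocol names a kit for total RNA.

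All 25824 genes above 0 gave whole reads in every library (tolerance 0.005 reads) for 1 library depth and 1 gene length each, 9358 with M21 exon bases less 1 per exon block and 16466 with the shortest fitting length. The true reads of a gene may be a multiple of these. They gave depth, Poisson intervals and the voom alternative, and RPKM remained the main scale. Depth is thus an inferred scale. In K36M replicates 1 and 3 and K9M replicate 1 the recovered gene reads summed to more than the depth. In K36M replicate 1 they summed to 41809762 against a depth of 40371147.

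Values were analysed as log2(RPKM + 0.5) for 12926 genes with at least 1 RPKM in at least 3 libraries, all 10 members among them. Differences on this scale understate those of low genes. Group means of the 9 libraries were fitted with limma 3.58.1 in R 4.3.3 (eBayes with trend, 6 residual and 3.14 prior degrees of freedom, two-sided, Benjamini-Hochberg over all tested genes, called under 0.05). The fit was checked on simulated data. Transcripts were compared with blastn 2.17.0. Same-number deviations correlated at 0.414, 0.369 and 0.377 for K36M and rtTA, so those numbers met the rule for pairs, from the data and not the labels. For K9M and rtTA they were 0.162, 0.06 and 0.017, and for K36M and K9M 0.074, -0.171 and 0.053, so the numbers of those groups did not. Reported values and ratio tests are unpaired, and the block was run as an alternative.

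The members, lists, ratios and tests were chosen with earlier results of these data known. Named beside the members are called genes of the 17 other lists, or up to 2 with the smallest p, the text giving a part of the latter. Epor, Gata2, Slc4a1, Alas2, Hba-a2, Pecam1, Emcn, Tek, Cdh5, Kdr, Elane, Mpo, H3f3a, H3f3b and genes called by voom alone were named after their values were seen. Of list entries, Epb41, Epb42 and Adgre1 were matched by identifier and Ahsp was not matched. Alternatives were other pseudocounts (0.1 and 1), filters, scalings, priors, library weights, a replicate block, fits to 2 groups, voom and leaving out each library.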

Additional observations from a re-analysis of the deposited data

How the results depend on the processing

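None of the 10 genes was called in K9M against rtTA or K36M against rtTA under any of the 20 alternatives. In K36M against K9M the count of the 10 genes called higher became 1 (Klf1, limma adjusted p = 0.0486) with the replicate block, and the count called lower became 1 (Car1) with the replicate block (limma adjusted p = 0.0402), with voom on recovered reads (0.0477), and in the range from 0 to 1 over the libraries left out in turn. The numbers of K36M and K9M mice do not pair by the check. Over all alternatives the adjusted p ran from 0.0486 to 0.355 for Klf1 and from 0.0302 to 0.218 for Car1 in K36M against K9M, and from 0.0889 to 0.442 for Klf1 in K36M against rtTA. Signs of Klf1 in K36M against rtTA and K36M against K9M, and of Car1 and Tfrc in all 3 comparisons, were kept in each of the 20.

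The count of all genes called in K9M against rtTA, 15, became 4 with no filter, 8 with quantile normalization, 9 with upper quartile scaling, 62 with library weights and 8 with voom, and ran from 6 to 36 with 1 library left out. In K36M against rtTA, 194 became 76 with no filter, 301 with the replicate block and 25 with only the 2 groups compared, and ran from 10 (without K36M replicate 1) to 402 (without K36M replicate 2). In K36M against K9M, 326 became 118 with no filter, 589 with library weights, 595 with the replicate block and 550 with voom, and ran from 15 (without K36M replicate 3) to 509 (without K36M replicate 2). The causes were not tested. With M21 gene lengths, a choice made after seeing the data, mean levels moved most, as a ratio, for Zfpm1, 32.1 in place of 56.1 RPKM. Depth limited the 10 genes less than the spread between mice, since counting gave a coefficient of variation of at most 6.48% in a group.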
